A study of Mus musculus with 6 samples.

Results

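A set of 10 genes, regulators and early products of the pachytene program, was followed in wild type and Srp68 SKO spermatocytes of the mouse. They were chosen by symbol, with earlier results of these data known. All of the symbols matched 1 row each among the 49584 genes of the count table. The regulators are Mybl1, Tcfl5, Tbpl1, Pou5f2, Ybx2 and Ybx3, and the 4 effectors are Meig1, Spata16, Nme5 and Zpbp. The series holds 6 Smart-seq2 libraries (full-length cDNA copied from few cells and amplified by PCR) of poly(A) RNA from leptotene and zygotene spermatocytes, sorted from testes at postnatal day 12. Of these, 3 carry the genotype Srp68 SKO and 3 the genotype wild type. The product of Srp68 is part of the signal recognition particle, which docks ribosomes at the endoplasmic reticulum when they make secreted or membrane proteins. The labels spell the knockout SKO and the table's columns CKO, and neither the driver of the deletion, the deleted exons nor the strain is given in the sources used here. The labels do not say whether replicates are separate animals, and the spread behind each p-value is that of these libraries and may be technical.

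Pachytene is the stage of meiotic prophase in which homologous chromosomes are fully paired, and it follows leptotene and zygotene. At this stage spermatocytes switch on a large set of genes whose products are used later, in the spermatid and the sperm. MYBL1 (A-MYB) is a transcription factor required for passage through pachytene and drives both protein-coding genes and the precursors of pachytene piRNAs. TCFL5 is a germ cell transcription factor of the basic helix-loop-helix class that works in the same program. TBPL1 (TRF2) is a relative of the TATA-binding protein needed for spermatid genes, and POU5F2 is a testis POU-domain protein. YBX2 (MSY2) and YBX3 (MSY4) are Y-box proteins that bind and store messenger RNA for delayed translation. Among the effectors, MEIG1 is needed to build the sperm flagellum, NME5 is a nucleoside diphosphate kinase family protein of motile cilia and flagella, and SPATA16 and ZPBP are proteins of the acrosome.

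The libraries held 14254224 to 15381473 counts in wild type and 11853738 to 12728853 in SKO, and 3 counts, taken as the floor of detection, corresponded to 0.174 to 0.289 CPM (counts scaled to a common library size with TMM factors). This floor covers counting error only, since PCR copies are counted as reads. Srp68 was at 21.7, 29.3 and 22.6 CPM in the wild type libraries (replicates 1, 2 and 3 in this order, here and in what follows) and at 12.1, 6.52 and 6.93 CPM in those of SKO, so every SKO library lay below every wild type library. Of the 19 leptotene and zygotene markers tested, led by Sycp3 at 5660 ± 698 CPM in wild type and 11200 ± 2200 CPM in SKO (SD, n = 3), 18 reached 5 CPM in some library. The exception was Rec8.

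Most of the 10 genes were lower in SKO spermatocytes, and Mybl1 alone was higher. Those called lower numbered 6: the regulators Tbpl1, Ybx2 and Ybx3 and the effectors Meig1, Nme5 and Zpbp. A gene is called here when its adjusted p is under 0.05 in edgeR's quasi-likelihood test, adjusted over all 13474 tested genes. Among all tested genes, 14.4% were called lower, 14.1% were called higher and 28.5% were called in either direction. The share of calls that were higher in SKO was 49.5% with TMM and 24.2% with library totals, which shifted the median of tested genes from −0.03 to −0.29. Tcfl5, Pou5f2 and Spata16 did not pass. The median log2 fold change (SKO over wild type) was −0.59 over the regulators and −0.91 over the effectors, against −0.03 over all tested genes. With offsets for transcript GC content and length these medians were −0.32 and −1.22. Over the genes that reached 5 CPM in 3 libraries they were −0.34 (5 regulators) and −0.79 (3 effectors). All 10 genes passed the filter on low counts, but Pou5f2 reached its level of 0.741 CPM in 3 wild type libraries and 1 SKO library, and Spata16 in 2 wild type libraries and 1 SKO library. In 6 of the 10 genes every SKO library lay below every wild type library, as it did for 22.2% of tested genes, and in 1 gene, Mybl1, every SKO library lay above, as for 21.6% of tested genes. Groups that do not overlap, in either direction, were thus found in 7 of the 10 genes and in 43.8% of all tested genes. Since the 10 genes were chosen with earlier results of these data known, setting their counts beside these shares is description and not a test. Fewer cells of a stage and less RNA per cell cannot be told apart in bulk libraries such as these.

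**Figure D1:**
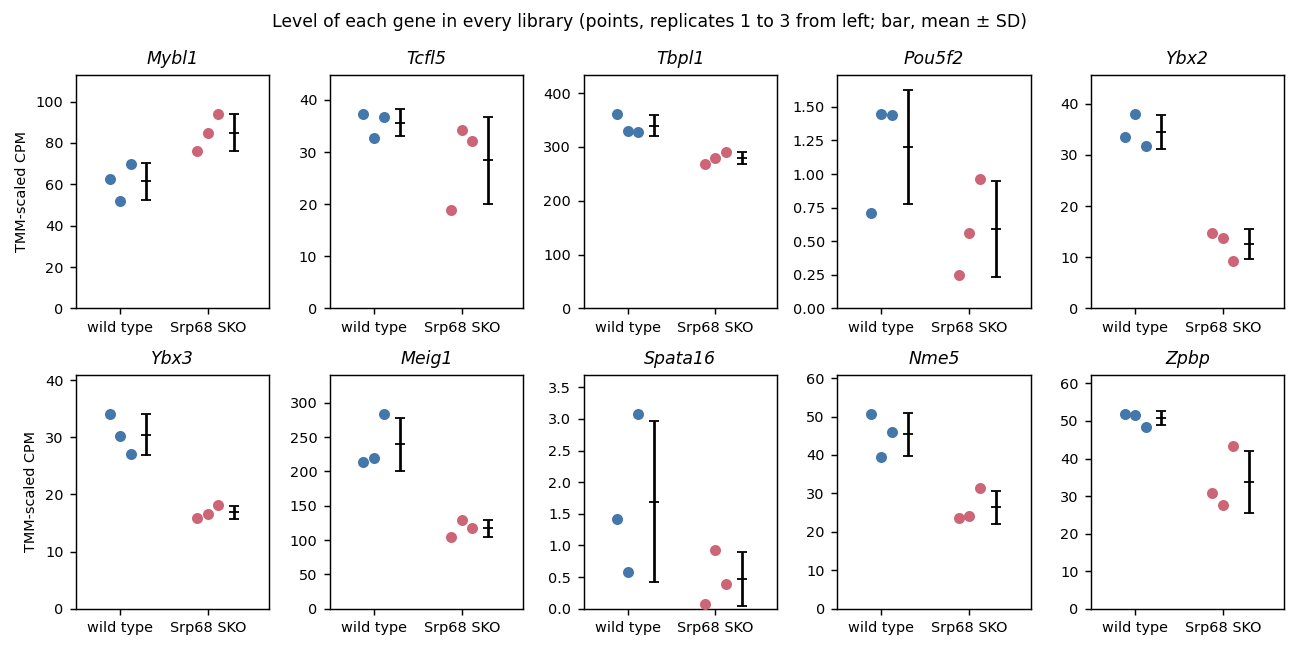
TMM-scaled CPM (vertical axes, each from 0) of the 10 genes in each wild type (blue) and Srp68 SKO (red) library, with points for replicates 1 to 3 and bars for the mean ± SD (n = 3). The genotypes do not overlap for Mybl1, Tbpl1, Ybx2, Ybx3, Meig1, Nme5 and Zpbp, and overlap for Tcfl5, Pou5f2 and Spata16.

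Mybl1 (ENSMUSG00000025912; GRCm38 chromosome 1, 9667415 to 9700209, minus strand) was the only one of the 10 genes to rise. It stood at 62.8, 52.1 and 69.8 CPM in wild type and at 76.0, 84.7 and 94.2 CPM in SKO. Every SKO library was above every wild type library, by a narrow margin between wild type replicate 3 and SKO replicate 1. The log2 fold change was 0.47 (SE 0.15; edgeR adjusted p = 0.0299). This call was lost with library totals in place of TMM (0.20; adjusted p = 0.309) and with offsets for transcript GC content and length (−0.03; adjusted p = 0.913), and without wild type replicate 1 (adjusted p = 0.0662) or 2 (0.123) or SKO replicate 2 (0.0916) or 3 (0.128). Its relative Mybl2, the B-MYB gene of dividing cells, was low, between 1.74 and 6.84 CPM in wild type and between 0.77 and 2.61 CPM in SKO libraries, and did not pass (edgeR adjusted p = 0.38).

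Tcfl5 (ENSMUSG00000038932; GRCm38 chromosome 2, 180621956 to 180642708, minus strand) did not follow Mybl1. Its wild type replicates were at 37.4, 32.7 and 36.8 CPM and its SKO replicates at 18.9, 34.3 and 32.1 CPM. SKO replicate 1 was low and the other two lay within or next to the wild type range, so the genotypes overlapped. The log2 fold change was −0.33 (SE 0.22; 95% interval −0.80 to 0.14; edgeR adjusted p = 0.297). With library totals it passed (−0.60; adjusted p = 0.0478), and with the GC content and length offsets its sign turned (0.27; adjusted p = 0.481). Within each library there were 1.59 to 1.90 Mybl1 counts per Tcfl5 count in wild type and 2.47 to 4.02 in SKO. No factor that scales whole libraries can move this ratio, and every SKO library was above every wild type library, but the transcripts differ in GC content. Its log2 value was 0.84 higher in SKO (two-sided exact permutation p = 0.1, the smallest that 3 against 3 allows; 0.175 adjusted over 7 ratios, which were chosen after the data were seen). With the GC content and length offsets the log2 fold change of Mybl1 minus that of Tcfl5 was −0.30, against 0.79 without them, so the direction turned. Of the exons of Tcfl5, 7.39% overlap Col9a3 on the opposite strand, which had at most 8 counts in any library.

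The 250 bases before the start of Tcfl5 held more MYB sites than nearly all other promoters, and they are shown because MYBL1 is another of the regulators followed here. A MYB site was searched on both strands as CAACTG, where the first base may also be T and the fifth may also be G. Of 32851 RefSeq promoter windows of that length (build GRCm38.p6), 23.7% held at least 1 such site and 0.0791% held at least 4. Tcfl5 had 4, which start 140, 118, 83 and 22 bases before the transcription start, and 1 NRF1 site (found in 3.74% of windows) that starts 66 bases before it. The sequence, chr2:180642692-180642941 on the minus strand, is written 5′ to 3′ with these sites in capitals, and no site overlaps another. The promoter of Ybx2, chr11:69935649-69935898 on the plus strand, is shown beside it for the regulator that fell most among those called. It had 2 CCAAT boxes (CCAAT, here as ATTGG on the printed strand and in capitals), a number reached by 10.1% of windows, and no MYB site. Both sequences were chosen after the matches were counted. Starts here are those of RefSeq and can differ from the GENCODE positions given for the genes. Both printed windows reach into the gene as GENCODE places it, that of Ybx2 from 69935796 on. The CCAAT box of Ybx2 that starts 87 bases before the RefSeq start therefore lies inside the GENCODE gene, and the box at 140 bases lies before it. Some other windows, such as that of Tbpl1, lie wholly inside the GENCODE gene.
Tcfl5: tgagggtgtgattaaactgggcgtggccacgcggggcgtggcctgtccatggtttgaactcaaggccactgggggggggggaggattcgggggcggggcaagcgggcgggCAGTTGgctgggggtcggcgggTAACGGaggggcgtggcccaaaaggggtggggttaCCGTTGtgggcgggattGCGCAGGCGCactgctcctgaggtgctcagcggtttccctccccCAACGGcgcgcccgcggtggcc
Ybx2: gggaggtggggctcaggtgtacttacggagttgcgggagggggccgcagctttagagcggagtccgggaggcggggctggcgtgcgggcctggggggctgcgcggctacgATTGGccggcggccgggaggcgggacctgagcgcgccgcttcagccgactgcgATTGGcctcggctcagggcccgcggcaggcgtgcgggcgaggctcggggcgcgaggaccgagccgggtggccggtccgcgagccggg
A RefSeq window was given for 8 of the 10 genes, 11 windows in all, and Mybl1 and Nme5 had none. Beside Tcfl5, a MYB site was found in Pou5f2 (1 site, 184 bases before the start). An E-box (CACGTG, in 6.02% of windows) was found in Spata16 alone, at 71 and 45 bases before the start, and 0.429% of windows held at least 2. An RFX motif (GTTGCCA, in 3.66%) was found in the other window of Ybx2, and a CCAAT box (in 33.8%) also in Zpbp and in 1 of the 3 windows of Meig1. No member window held a cAMP response element (TGACGTCA, in 1.55%) or a TATA box (TATAAA, in 12.4%), and those of Tbpl1 and Ybx3 held none of the 7 motifs searched. A match is a description of the letters and not a site shown to be bound.

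Tbpl1 (ENSMUSG00000071359; GRCm38 chromosome 10, 22703879 to 22731938, minus strand) was the most abundant of the regulators and fell slightly. Its wild type replicates were at 362, 330 and 327 CPM and its SKO replicates at 268, 279 and 291 CPM. The genotypes did not overlap, and the SKO level averaged 82.2% of that in wild type. Its log2 fold change was −0.28 (SE 0.10; edgeR adjusted p = 0.0436), −0.55 with library totals and −0.42 with the GC content and length offsets, both with the call held. The call was lost with DESeq2 size factors (adjusted p = 0.0614), upper-quartile factors (0.085), no filter on low counts (0.0701), mitochondrial and ribosomal protein genes left out (0.0521), and without wild type replicate 1 (0.146) or 2 (0.078) or SKO replicate 1 (0.103), 2 (0.129) or 3 (0.0642). Tbp, the gene of the TATA-binding protein itself, also fell, from 182 ± 2.52 to 132 ± 8.58 CPM (SD, n = 3; edgeR adjusted p = 0.00516). Within a library there were 1.78 to 2.02 Tbpl1 counts per Tbp count in wild type and 1.89 to 2.28 in SKO, with overlap between the genotypes (two-sided exact permutation p = 0.2; 0.233 adjusted over the 7 ratios). With the GC content and length offsets the log2 fold change of Tbpl1 minus that of Tbp was 0.44, against 0.18 without them. Other genes overlap 19.02% of the exon length of Tbp. The opposite strand gene Slc2a12, which overlaps 12.44% of the exon length of Tbpl1, had at most 8 counts in any library.

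Pou5f2 (ENSMUSG00000093668; GRCm38 chromosome 13, 78024902 to 78026295, plus strand) was close to the floor of detection. Its counts were 11, 25 and 22 in wild type and 3, 6 and 10 in SKO. On the CPM scale these were 0.709, 1.45 and 1.44 against 0.247, 0.558 and 0.962, so the genotypes overlapped between wild type replicate 1 and SKO replicate 3. The log2 fold change was −1.02 with a 95% interval from −2.93 to 0.88 (edgeR adjusted p = 0.432), and a difference was not detectable at this depth. Leaving out SKO replicate 1 moved the value to −0.66, and leaving out SKO replicate 3 to −1.56. Pou5f2 has a single exon and lies in an intron of Fam172a on the same strand, which was at 30.5 ± 8.79 CPM in wild type and 23.3 ± 0.652 CPM in SKO (SD, n = 3; edgeR adjusted p = 0.216). The part of reads from unspliced Fam172a RNA in the counts of Pou5f2 was not tested.

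The Y-box genes fell, Ybx2 most of all the regulators called. Ybx2 (ENSMUSG00000018554; GRCm38 chromosome 11, 69935796 to 69941605, plus strand) was at 33.5, 38.1 and 31.8 CPM in wild type and at 14.7, 13.8 and 9.33 CPM in SKO. The highest SKO library was far below the lowest wild type library, and on average SKO held 36.6% of the wild type level. This made a log2 fold change of −1.45 (SE 0.22; edgeR adjusted p = 0.000261), and of −0.64 with the GC content and length offsets, with the call held (adjusted p = 0.0244). Ybx3 (ENSMUSG00000030189; GRCm38 chromosome 6, 131364855 to 131388476, minus strand) was at 34.1, 30.2 and 27.0 CPM in wild type and at 15.9, 16.5 and 18.2 CPM in SKO. All 3 SKO libraries lay close together, below the wild type range. Its log2 fold change was −0.85 (SE 0.20; edgeR adjusted p = 0.00501), and the call was lost with the GC content and length offsets (−0.22; adjusted p = 0.499). Ybx1, the broadly expressed relative, fell as well, from 230 ± 8.75 to 140 ± 11.2 CPM (SD, n = 3; edgeR adjusted p = 0.000241).

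Within each library, Ybx2 was set against its relatives, with 3 against 3 values that cannot pass an exact test. There were 0.983, 1.26 and 1.18 Ybx2 counts per Ybx3 count in wild type and 0.927, 0.836 and 0.513 in SKO. The genotypes did not overlap, with the closest values in wild type replicate 1 and SKO replicate 1 (log2 difference −0.62; two-sided exact permutation p = 0.1; 0.175 adjusted over the 7 ratios). Per Ybx1 count there were 0.141 to 0.165 Ybx2 counts in wild type and 0.0615 to 0.114 in SKO (log2 difference −0.76; exact permutation p = 0.1; 0.175 adjusted). Ybx3 kept closer to Ybx1, with 0.123 to 0.143 and 0.118 to 0.123 counts per Ybx1 count (log2 difference −0.14; exact permutation p = 0.2; 0.233 adjusted), and here the ranges met. With the GC content and length offsets the log2 fold change of Ybx2 minus that of Ybx3 was −0.42 and minus that of Ybx1 −0.26, while that of Ybx3 minus that of Ybx1 turned to 0.16.

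**Figure D2:**
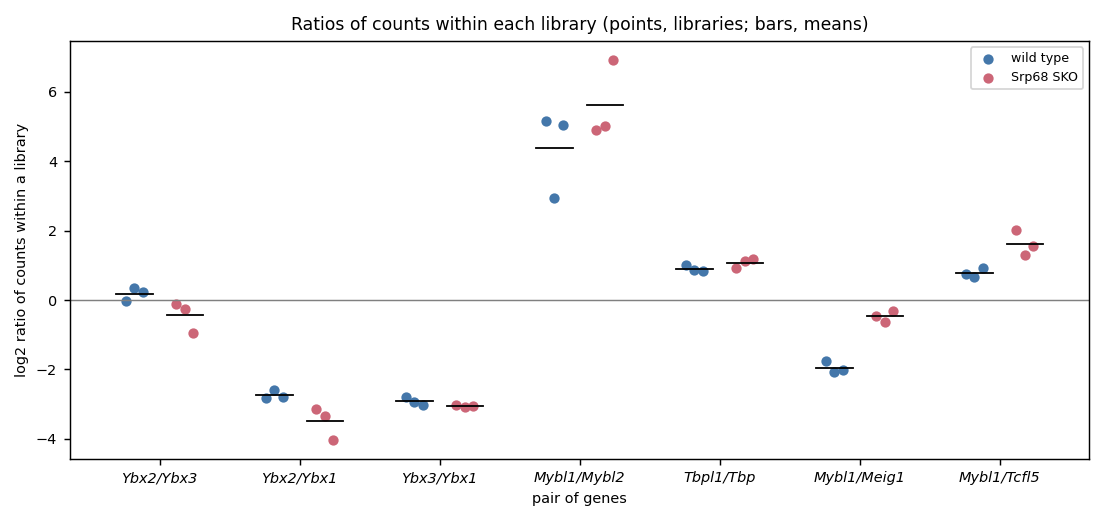
Log2 ratio of counts of a pair of genes within each library (vertical axis), for wild type (blue) and Srp68 SKO (red), with bars for the mean of 3 libraries. Ybx2 over Ybx3, Ybx2 over Ybx1, Mybl1 over Meig1 and Mybl1 over Tcfl5 separate the genotypes, and the other 3 ratios do not.

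Of the 4 effectors, Meig1 changed with the smallest p. Meig1 (ENSMUSG00000026650; GRCm38 chromosome 2, 3409043 to 3422648, minus strand) was at 214, 220 and 284 CPM in wild type and at 105, 130 and 117 CPM in SKO. No SKO library came near the wild type range, and SKO averaged 49.0% of wild type. For Meig1 the log2 fold change was −1.03 (SE 0.13; edgeR adjusted p = 7.26e-05), and −1.46 with the GC content and length offsets. Meig1 fell in the libraries in which Mybl1 rose. In wild type libraries there were 0.237 to 0.293 Mybl1 counts per Meig1 count, and in SKO libraries 0.650 to 0.808 (log2 difference 1.49; two-sided exact permutation p = 0.1; 0.175 adjusted over the 7 ratios).

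Nme5 (ENSMUSG00000035984; GRCm38 chromosome 18, 34562634 to 34579115, minus strand) was at 50.7, 39.5 and 46.0 CPM in wild type and at 23.6, 24.1 and 31.4 CPM in SKO. The genotypes did not overlap, and the gene fell by 0.78 on the log2 scale (SE 0.18; edgeR adjusted p = 0.00552). Nme7, another member of the family that is found at microtubules, was at 42.0 ± 4.59 CPM in wild type and 30.4 ± 5.55 CPM in SKO (SD, n = 3) and did not pass (edgeR adjusted p = 0.0769).

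Zpbp (ENSMUSG00000020193; GRCm38 chromosome 11, 11279626 to 11462408, minus strand) was at 51.9, 51.7 and 48.5 CPM in wild type and at 30.8, 27.5 and 43.2 CPM in SKO. SKO replicate 3 stood above the other SKO libraries and just below the wild type range. Zpbp changed by a log2 fold of −0.58 (SE 0.18; edgeR adjusted p = 0.0277), and −0.91 with the GC content and length offsets, with the call held. The call was lost without wild type replicate 1 (adjusted p = 0.0775) or 2 (0.0749) or SKO replicate 1 (0.0928) or 2 (0.138). Spata48, which overlaps 5.25% of the exon length of Zpbp on the opposite strand, was at 1.17 ± 1.46 and 1.52 ± 0.433 CPM (SD, n = 3). Its relative Zpbp2 was at 14.0 ± 2.07 CPM in wild type and 8.38 ± 2.29 CPM in SKO and did not pass (edgeR adjusted p = 0.0685).

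Spata16 (ENSMUSG00000039335; GRCm38 chromosome 3, 26637620 to 26983212, plus strand) was near the floor. It had 22, 10 and 47 counts in the wild type libraries against 1, 10 and 4 in SKO. As CPM the values were 1.42, 0.579 and 3.08 against 0.0823, 0.931 and 0.385. SKO replicate 2 lay above wild type replicate 2, so the genotypes overlapped. The log2 fold change of −1.85 had a 95% interval from −3.98 to 0.28 (edgeR adjusted p = 0.188), and a difference was not detectable at this depth. Leaving out wild type replicate 3 gave −1.09, and leaving out SKO replicate 2 gave −2.84.

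**Figure D3:**
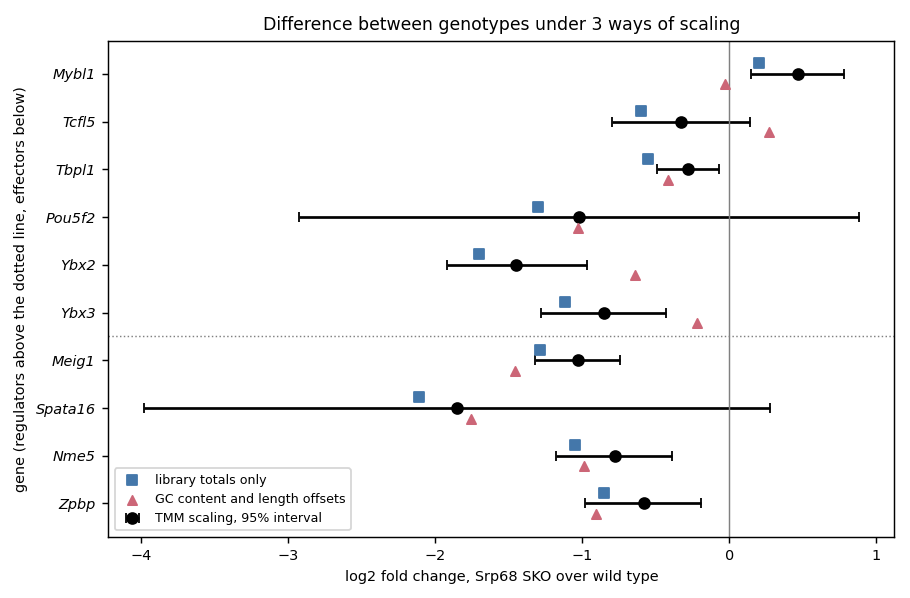
Log2 fold change of SKO over wild type (horizontal axis) for each gene, with the 95% interval of the edgeR test under TMM scaling (black), and the value with library totals (blue squares) and with offsets for GC content and length (red triangles). The effectors and the regulators Tbpl1, Pou5f2, Ybx2 and Ybx3 lie below 0 under all 3, whereas Mybl1 and Tcfl5 change sign with the offsets. The intervals of Tcfl5, Pou5f2 and Spata16 include 0.

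Set against exon length, the 10 genes covered a wide range of levels. In wild type libraries Meig1 was highest at 217 ± 35.3 CPM per kb of exon (SD, n = 3), followed by Tbpl1 at 104 ± 5.95, Nme5 at 39.3 ± 4.85 and Ybx2 at 18.3 ± 1.71 CPM per kb. Among Zpbp (11.9 ± 0.454), Mybl1 (11.4 ± 1.65), Tcfl5 (11.3 ± 0.808) and Ybx3 (9.90 ± 1.15), neighbours in this order did not differ beyond their spread. Pou5f2 (0.860 ± 0.305) and Spata16 (0.801 ± 0.602) were lowest and likewise overlapped. Meig1 stood above 97.5% of tested genes on this scale, and Spata16 above 22.4%. In SKO libraries Meig1 (106 ± 11.5) and Tbpl1 (85.3 ± 3.49) were again highest and Nme5 followed at 22.8 ± 3.76 CPM per kb. The fourth place, held by Ybx2 in wild type, went to Mybl1 at 15.7 ± 1.68 CPM per kb, while Ybx2 stood at 6.69 ± 1.53.

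Changes across all tested genes followed the GC content of the transcript, and the 10 genes span most of its range. When tested genes were cut into 10 equal groups by GC content (deciles), the decile of lowest content had a median log2 fold change of 0.37, and that of highest content one of −0.56. Mybl1, at 37.0% GC, lies in the lowest decile, and its log2 fold change of 0.47 is close to that decile's median. Zpbp (40.3%) is in the same decile and Meig1 (41.4%) in the next, whose median was 0.24, and both fell. Tcfl5 (56.3%) lies in a decile with a median of −0.46, near its own −0.33. Ybx3 (57.2%) and Ybx2 (63.4%) lie in the highest decile, so that the fall of Ybx3 by 0.85 was nearer to the decile's median than that of Ybx2 by 1.45. Tbpl1 (44.0%) and Nme5 (47.2%) stand in deciles with medians of 0.17 and 0. The part of GC content in the values of each gene was not tested beyond the fit with offsets.

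**Figure D4:**
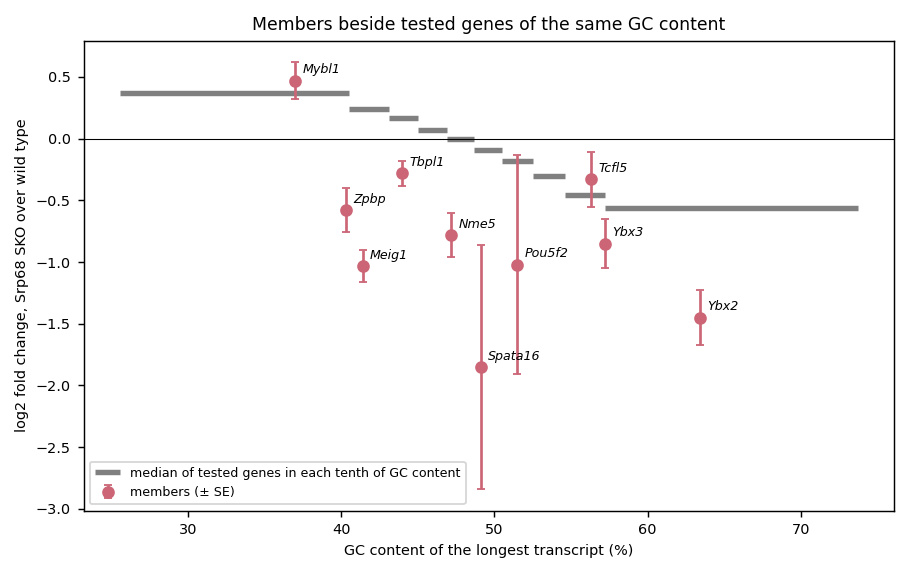
Log2 fold change of SKO over wild type (vertical axis) of the 10 genes (red, ± SE) against the GC content of their longest transcript, with the median of all tested genes in each decile of GC content as grey lines. Mybl1 and Tcfl5 lie just above the line of their decile, and the other 8 genes lie below theirs.

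Other genes of the same program were taken from lists drawn up with earlier results of these data known, and are given as counts with no test over a list. Among all tested genes 14.4% were called lower and 14.1% higher, the shares to set beside the counts of every list from here on. Of 21 tested transcription regulators of pachytene and spermatid genes, 4 were lower, 6 higher and 11 did not pass (median log2 fold change −0.10). Kctd19, whose protein works with ZFP541 in pachytene chromatin, fell from 59.1 ± 3.97 to 23.8 ± 1.34 CPM (SD, n = 3; edgeR adjusted p = 4.08e-05). The TFIID subunit genes Taf4b (138 ± 11.2 to 280 ± 48.5 CPM; 7.11e-05) and Taf7l (972 ± 39.1 to 1510 ± 14.9 CPM; 8.29e-05) rose. Among 23 tested RNA regulators of germ cells, 4 were lower, 8 higher and 11 did not pass (median 0.07). Ddx25, the helicase gene also called GRTH, fell from 173 ± 9.35 to 74.4 ± 7.89 CPM (1.03e-05). Meioc, which keeps the meiotic program running after entry (419 ± 34.5 to 687 ± 46.5 CPM; 0.000137), and the splicing regulator gene Ptbp2 (179 ± 6.13 to 265 ± 29.3 CPM; 0.00153) rose. With library totals the median of this list was −0.19, against −0.29 over all tested genes (−0.03 with TMM). With the GC content and length offsets this list had 8 lower and 1 higher. Its median turned to −0.18, against −0.06 over all tested genes. Ptbp2 then stood at 0.01 (adjusted p = 0.974; 0.30 with library totals, against 0.57) and Meioc at 0.30 (adjusted p = 0.0155; 0.45 with library totals, against 0.71). The median of the transcription regulators was −0.19 with the offsets, −0.36 with library totals, 0.01 over the 19 genes at 5 CPM in 3 libraries and 0.05 without wild type replicate 2, and Taf7l stood at 0.38 with library totals, against 0.64.

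More piRNA factors were lower than higher, with 10 of 18 tested genes lower, 2 higher and 6 that did not pass (median −0.52). Mael fell from 816 ± 18 to 518 ± 45.8 CPM (SD, n = 3; edgeR adjusted p = 0.000185), Tdrd5 from 26.8 ± 4.66 to 8.59 ± 1.68 CPM (0.000227) and Tdrd9 from 36.5 ± 1.26 to 17.6 ± 2.37 CPM (0.000939). Of 19 tested pachytene effector genes outside the 10, 9 were lower, 2 higher and 8 did not pass (median −0.76), and 6 more were too low to test. Some lists share genes. Ropn1l is counted here and among the MEIG1 partners and radial spoke genes, and Meioc among the RNA regulators and the leptotene and zygotene markers. Ldhc, whose product is the lactate dehydrogenase of germ cells, went down from 55.7 ± 8.72 to 12.7 ± 2.84 CPM (9.95e-06), Ropn1l, of the sperm fibrous sheath and radial spoke, from 60.8 ± 8.65 to 21.1 ± 2.48 CPM (3.12e-05) and the kinase gene Aurka from 140 ± 9.57 to 49.4 ± 15.5 CPM (5.05e-05).

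Structural genes of the flagellum and the acrosome that belong with the effectors were lower or did not pass. Of 13 tested genes of MEIG1 partners and radial spokes, 7 were lower, 0 higher and 6 did not pass (median −1.17). The median was −0.66 over 21 genes with no filter on low counts and −0.56 over the 8 that reached 5 CPM in 3 libraries. The radial spoke gene Rsph1 fell from 335 ± 25.3 to 78.5 ± 10.7 CPM (SD, n = 3; edgeR adjusted p = 2.85e-07), a larger fall than that of Nme5 or Meig1, though this difference was not tested. Spag17, of the central apparatus, fell from 3.58 ± 1.79 to 0.154 ± 0.0619 CPM (0.00123; 0.0663 with limma-voom, which ended the call). Its SKO libraries had 1, 2 and 2 counts, below the floor, so it passed the filter on low counts through wild type alone. Of 12 tested acrosome genes, 4 were lower, 0 higher and 8 did not pass (median −0.68), and 9 more were too low to test, 5 of them with no count in any library. Spesp1, of the equatorial segment, fell from 41.3 ± 11.8 to 10.1 ± 5.66 CPM (0.000596), Atg7, an autophagy gene needed for the acrosome, from 9.21 ± 1.66 to 3.97 ± 0.650 CPM (0.0152) and Spag8 from 2.25 ± 0.653 to 0.144 ± 0.129 CPM (0.0102). The call of Atg7 did not hold without wild type replicate 2 (adjusted p = 0.0669) or SKO replicate 2 (0.0647) or with the GC content and length offsets and the replicate block together (0.0586), and that of Spag8 without wild type replicate 2 (0.055). Spag8 had 3, 2 and 0 counts in SKO, at or below the floor, and like Spag17 passed the filter through wild type alone. Genes tested in this way could only be called lower, and both are counted among those called lower.

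**Figure D5:**
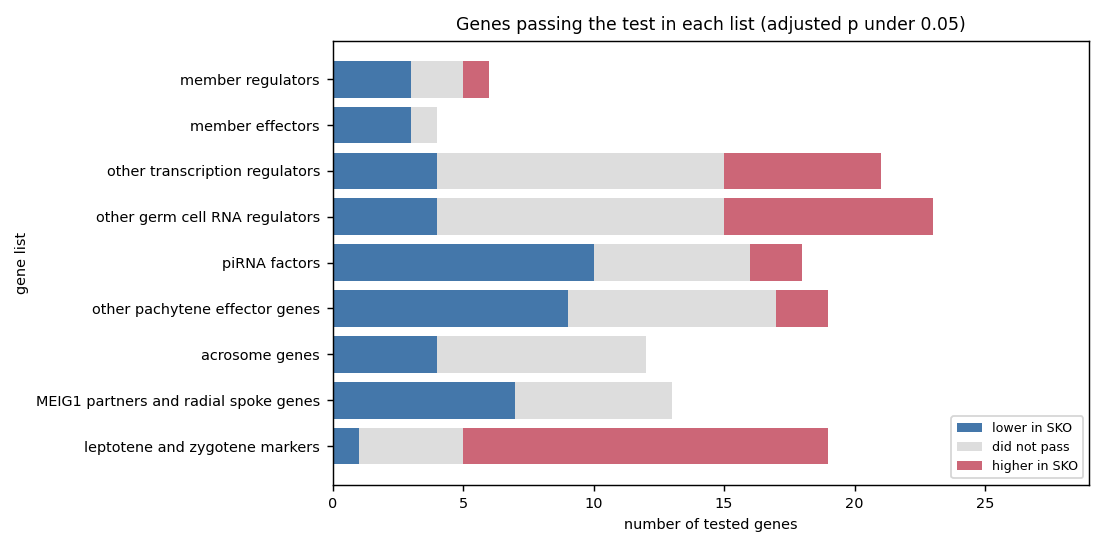
Number of tested genes (horizontal axis) in each list that were lower in SKO (blue), did not pass (grey) or were higher in SKO (red) at an adjusted p under 0.05. The effectors, the MEIG1 partners and radial spoke genes and the acrosome genes hold no gene called higher, and 14 of 19 leptotene and zygotene markers were higher. Of all tested genes 14.1% were called higher and 14.4% lower. With DESeq2, 1 gene of the MEIG1 partners and radial spokes was called higher.

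Most markers of leptotene and zygotene moved the other way in the same libraries. Of 19 tested leptotene and zygotene markers, 14 were higher, 1 lower and 4 did not pass (median 0.74; 0.35 with the GC content and length offsets and 0.48 with library totals), and their summed level ran from 20200 to 25000 CPM in wild type and from 35600 to 46100 CPM in SKO. The meiotic initiation gene Stra8 rose from 99.9 ± 14.1 to 486 ± 50.2 CPM (SD, n = 3; edgeR adjusted p = 2.66e-07), the synaptonemal complex gene Syce2 from 1320 ± 121 to 3270 ± 328 CPM (1.64e-06) and the recombinase gene Dmc1 from 426 ± 17.9 to 809 ± 11 CPM (8.46e-06). The part of a shift in stage between the sorted populations in the values of the 10 genes was not tested. Of 10 markers of differentiating spermatogonia, 1 (Stra8) was higher and 2 lower, Prss50 (281 ± 64.5 to 96.7 ± 17.6 CPM; 2.5e-05; log2 fold change −1.54, and −1.02 with the offsets) and Sohlh2 (59.1 ± 3.5 to 34.1 ± 2.48 CPM; 0.00134), with a summed level of 619 to 727 CPM in wild type and 782 to 896 CPM in SKO. Without Stra8, which is also among the leptotene and zygotene markers, the other 9 summed to 505 to 628 CPM in wild type and 326 to 395 CPM in SKO, the opposite direction.

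Markers of undifferentiated spermatogonia and of spermatids were low. The 12 markers of undifferentiated spermatogonia summed to 15.6 to 34.8 CPM in wild type and 21.0 to 31.4 CPM in SKO, with 9 of 12 below 5 CPM in all libraries, and none passed. Sall4 (10.8 ± 5.61 and 9.50 ± 1.40 CPM; SD, n = 3) and Nanos3 (4.49 ± 3.01 and 6.61 ± 2.20 CPM) were the most abundant. The 12 spermatid markers, which share the late program of the effectors, summed to 4.98 to 5.85 CPM in wild type and 6.05 to 7.65 CPM in SKO. Prm2, Tnp2, Akap4 and Smcp had no count in any library, and Izumo1 was at 2.64 ± 1.37 and 1.7 ± 1.51 CPM. Tnp1 was the 1 spermatid marker called, at 0.343 ± 0.304 CPM in wild type and 2.88 ± 0.740 CPM in SKO (edgeR adjusted p = 0.0277). Its wild type mean lay below the 0.741 CPM of the filter on low counts, which it passed through the SKO libraries, where it was high. Tnp1 was not called when wild type replicate 1 was left out (0.0597), nor without any 1 SKO library (0.118, 0.0633 and 0.0867), nor with the GC content and length offsets (0.0753; 0.0772 with the replicate block).

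Sertoli cell markers summed to 48.5 to 55.1 CPM in wild type and 27.7 to 111 CPM in SKO, led by Clu, which was at 18.7, 12.4 and 75.2 CPM in SKO replicates 1 to 3, and Vim (3.75 ± 2.19 and 6.16 ± 0.147 CPM; SD, n = 3). Leydig and myoid cell markers summed to 6.35 to 22.1 CPM and 19.8 to 29.4 CPM, with Cyp17a1 and Cyp11a1 at 0 and Dcn (5.74 ± 5.41 and 7.85 ± 7.05 CPM) and Star (2.77 ± 3.35 and 6.32 ± 2.12 CPM) highest. Acta2 rose from 1.44 ± 0.598 to 6.85 ± 4.74 CPM (edgeR adjusted p = 0.00763; 0.114 without SKO replicate 3). Macrophage and blood cell markers summed to 4.90 to 108 CPM and 29.3 to 119 CPM, mostly the globin genes Hba-a1 (27.4 ± 44.5 and 30.7 ± 18.9 CPM) and Hbb-bs (9.70 ± 14.7 and 36.0 ± 27.0 CPM). Lyz2, of macrophages, was at 25.2 CPM in SKO replicate 3 and at 0.129 to 2.16 CPM in the other 5 libraries, and its call (edgeR adjusted p = 0.0454) was lost without SKO replicate 3 (0.991) and also without wild type replicate 1 (0.16) or 2 (0.137), with library totals (0.0637), limma-voom (0.297), robust fitting (0.2) and the GC content and length offsets (0.0555), and DESeq2 gave it no adjusted p. Without that library Ybx2 stood at −1.28, Ybx3 at −0.91, Meig1 at −1.03, Nme5 at −0.93 and Zpbp at −0.80 on the log2 scale, all with their calls held, whereas Mybl1 (0.38; adjusted p = 0.128) and Tbpl1 (−0.31; adjusted p = 0.0642) lost theirs.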

How the data were processed

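The authors deposited 1 table of read counts, with whole numbers that were not normalized. The submitters' processing notes name FastQC, Trim Galore 0.6.4, HISAT2 2.0.5 and the builds GRCm38 and mm10. For the assignment of reads to genes, the program, strand use and annotation are not given in the sources read here. Columns were assigned to libraries by genotype and replicate number. GENCODE vM21 gave symbols, positions, union exon lengths and the GC content of the longest transcript for 49325 of 49584 identifiers.

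In R 4.3.3, genes were filtered by filterByExpr, which left 13474, scaled by TMM and tested with edgeR 4.0.16 (glmQLFit, glmQLFTest, two-sided, with a term for genotype alone, Benjamini-Hochberg adjustment over all tested genes, threshold 0.05). The code of the test was run on simulated counts with a common dispersion and no trend with GC content. That setting differs from these data, so the run says nothing of the calls given here. Alternatives were other scalings and filters, DESeq2 1.42.0, limma-voom (limma 3.58.1), robust fitting, a replicate block, each library left out, and loess offsets (span 0.3) for GC content and length. Named genes were Srp68, the 10 members, up to 3 called genes of each other list by smallest p and the 2 most abundant markers of each other cell type; Sycp3, Rec8, Mybl2, Tbp, Ybx1, Nme7, Zpbp2 and genes overlapping members were added after their values were seen. The members and lists were chosen with earlier results of these data known.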

Additional observations from a re-analysis of the deposited data

How the results depend on the processing

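Depth limits what can be said of Pou5f2 and Spata16, which had at most 25 and 47 counts in a library. Effectors called lower numbered 2 or 3 and regulators called lower 2 to 4 under all settings, against 3 and 3. The 1 regulator called higher, Mybl1, was 0 with library totals and with GC content and length offsets, with or without the replicate block, and 0 or 1 with a library left out; the cause was not tested. In the fits with offsets Mybl1 turned to −0.03, or −0.02 with the block, and Tcfl5 to 0.27, or 0.22 with the block. Genes with every SKO library above every wild type library fell from 1 to 0 with library totals and with the offsets. Alternatives for the other lists were chosen after seeing the data. With library totals, leptotene and zygotene markers called lower were 2 in place of 1, RNA regulators 10 lower and 3 higher in place of 4 and 8, transcription regulators 8 lower in place of 4, pachytene effector genes 0 higher in place of 2, and piRNA factors 1 higher in place of 2. Over all tested genes, library totals gave 3168 lower and 1010 higher in place of 1937 and 1901. With the offsets, with or without the block, leptotene and zygotene markers called lower were 2, piRNA factors called higher 1, and RNA regulators called lower 8, while RNA regulators called higher were 1, or 2 with the block. Pachytene effector genes called higher were 1 with robust fitting or no filter on low counts. Genes of MEIG1 partners and radial spokes called higher were 1 with DESeq2, and those called lower 4 with limma-voom. With a library left out, acrosome genes called lower ranged from 2 to 6, leptotene and zygotene markers called lower from 0 to 1 and pachytene effector genes called higher from 1 to 2. Same-numbered libraries of the genotypes did not deviate together over all tested genes (correlations 0.02, −0.05 and 0.04). Counting and PCR error enter these values, so they cannot show whether the numbers pair the libraries, which the labels do not say. The replicate block gave 3967 calls in place of 3838 and changed the call of none of the 10 genes (Mybl1 0.47, Meig1 −1.02 and Ybx2 −1.47 on the log2 scale).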
